A study of Mus musculus with 12 samples.

Results

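The Slc25 family comprises the mitochondrial solute carriers of mouse Th2 cells described here in 3 cKO-labelled and 3 WT libraries of RNA-seq and in 3 and 3 others of ATAC-seq, an assay of DNA accessible to a transposase. Members were the genes of the RNA table with a symbol made of Slc25a and a number and a mean of at least 10 normalized counts over the 6 RNA libraries. The rule took 41 genes of 43 with such a symbol, in a table of 25700 genes of which 18074 reached that mean and were tested. The genotypes are given as cKO, a conditional knockout, and WT. NRF2, the product of Nfe2l2 and an activator of antioxidant genes, is named in the title of the series, but the labels used here state neither the gene nor the part deleted, nor a driver of deletion, strain, age, sex or treatment. All libraries are labelled T cell and Th2 cell, and nothing in the labels says that replicates came from separate animals. The p-values therefore set differences against the spread between these libraries, which is not known to be a spread between animals. The comparison asks how the genotypes differ in transcripts and open chromatin.

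The inner mitochondrial membrane is nearly closed to charged molecules, and Slc25 proteins exchange or carry most of those that cross it. Each is a small bundle of membrane helices that opens to one side at a time, moving among others ADP and ATP, phosphate, citrate, malate, amino acids, nucleotides, cofactors and glutathione. Activated T cells draw on these routes to export ATP and citrate, to run the malate-aspartate shuttle and to feed mitochondrial one-carbon and iron metabolism. A few members sit in other membranes, such as Slc25a17 in the peroxisome and Slc25a46 in the mitochondrial outer membrane.

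Totals of the RNA libraries were 6431081 to 7372007 normalized counts in the cKO-labelled libraries and 6916169 to 7342611 in WT. The ATAC libraries held 13149952 to 17728414 tags in the cKO-labelled group and 13247145 to 18327127 in WT. WT replicate 2 stood apart in ATAC, with 25.22% of its tags in peaks against 34.87% to 38.28% in the other 5 libraries. The summed level of 10 T cell markers was 0.337% to 0.378% of the total in cKO-labelled libraries and 0.342% to 0.361% in WT. The 9 Th2 markers summed to 0.0423% to 0.0511% in cKO-labelled libraries and 0.0409% to 0.0488% in WT, with overlap. Of them, Gata3 averaged 719.7 normalized counts in cKO-labelled libraries and 711.7 in WT, and Il13 384.7 in cKO-labelled libraries and 810.1 in WT. Il4 and Il5 averaged 2.2 and 6.3 over all 6 libraries. Summed markers of B and plasma cells were 0.0154% to 0.0168% of the total in cKO-labelled libraries and 0.0137% to 0.0175% in WT, and those of CD8 T and NK, myeloid, and epithelial and stromal cells were under these in both genotypes. Nfe2l2 stood at 452.83, 326.42 and 391.53 normalized counts in the cKO-labelled libraries, against 169.92, 155.3 and 147.37 in WT (log2 change 1.29, limma adjusted p = 0.0438). The Y-linked gene Ddx3y was listed at 0 in all cKO-labelled libraries and averaged 131.9 ± 8.6 in WT (SD, n = 3), so the sex of the source animals and the genotype cannot be told apart, which touches the 4 X-linked members Slc25a5, Slc25a14, Slc25a43 and Slc25a53 among others.

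No member passed an adjusted p of 0.05 in limma, in either direction, against 37 of all 18074 genes, or 0.205% (0.0332% higher, 0.172% lower). At an unadjusted p under 0.05, 1 member was higher and 4 were lower, where 6.05% of all genes lay in each direction. The authors' deposited table gave an adjusted p for 26 members and put 1 of them past 0.05, Slc25a25, lower in the cKO-labelled libraries; its background over the 9263 genes with such a value was 3.9% lower and 1.78% higher. With sample quality weights, which were 7.43 for cKO replicate 1 and 0.437 to 1.12 for the rest, limma put Slc25a36 higher (adjusted p = 0.0247) and Slc25a3 (0.0293) and Slc25a32 (0.0405) lower. Fewer cells of a type and less RNA per cell cannot be told apart in these bulk libraries.

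Log2 changes of the 41 members ran from -1.06 to 0.55 with a median of 0.015, beside a median of 0.06 over all genes tested; 22 were above 0 and 19 below. The median of the members was -0.02 after TMM rescaling, 0.01 after median-of-ratios rescaling and -0.005 after quantile normalization. The 3 cKO-labelled and 3 WT values did not overlap in 8 members. Of these, 2 were higher in the cKO-labelled libraries (4.88% of members, background 7.4%) and 6 lower (14.6% of members, background 9.76%). Standard errors of the changes ran from 0.12 for Slc25a3 to 0.82 for Slc25a43 on the log2 scale, and a member that misses the threshold is not thereby shown to be equal in the genotypes.

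**Figure D1:**
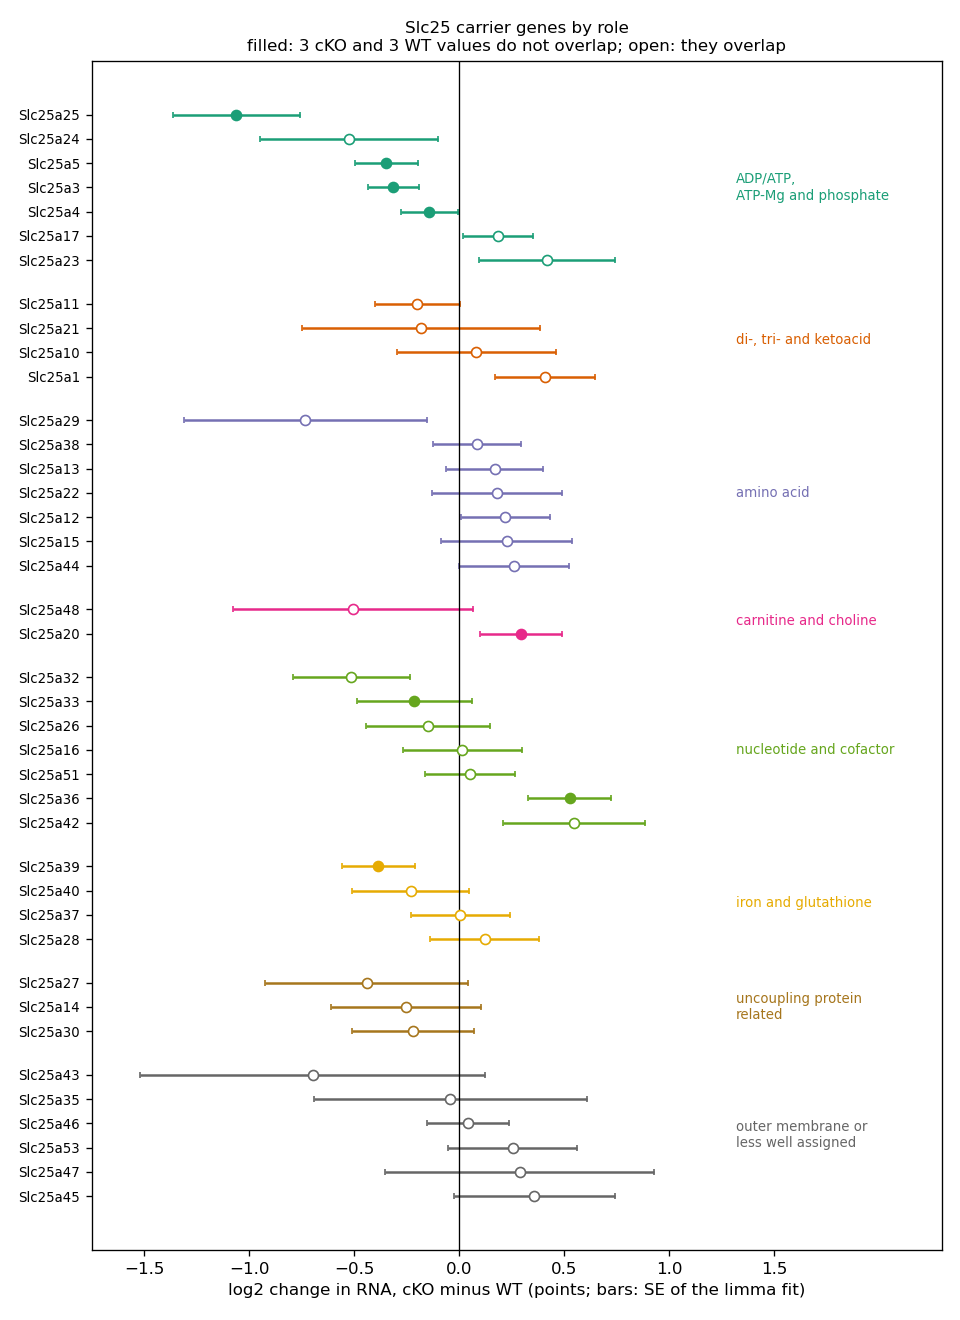
Log2 change, cKO-labelled over WT, of Slc25 members (points) with its standard error from limma (bars), grouped by role. Filled points mark members whose groups do not overlap. The change of Slc25a25 is the farthest from 0, at -1.06, and that of Slc25a42 is the highest, at 0.55.

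Slc25a25 (ENSMUSG00000026819, chromosome 2, 32414487 to 32451470, mm10) had the largest difference of all members. It encodes a calcium-regulated carrier that exchanges ATP-Mg for phosphate and so sets the adenine nucleotide content of the matrix. Its normalized counts were 101.69, 76.96 and 70.87 in the cKO-labelled libraries, against 149.81, 238.93 and 143.26 in WT. Every cKO-labelled value lay below every WT value. The means were 83.2 ± 16.3 in cKO-labelled libraries and 177.3 ± 53.4 in WT (SD, n = 3 each), 2.13-fold lower in the cKO-labelled libraries. The log2 change was -1.06 (SE 0.30, 95% interval -1.71 to -0.41, limma adjusted p = 0.168). The authors' deposited table gave it a log2 change of -0.84 with an adjusted p of 0.0276. Over all alternative settings of limma the change ran from -1.21 to -0.78 and the adjusted p from 0.0713 to 0.521.

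RefSeq places 3 starts of Slc25a25 on the minus strand (GRCm38.p6), and open chromatin lay over the first, at 32451470, and over the inner one, at 32424066. The 250 bases before each of these starts are printed because the deposited heights of the regions over them differed in opposite directions between the genotypes. Promoters of Slc25a36 and Slc25a3, the members with the next smallest p, follow. Capitals mark matches to 3 motifs, searched on both strands. They were TGACNNNGC, the antioxidant response element core bound by NRF2, and CACGTG, an E-box. The third was a site of NRF1, in a form that is not a palindrome.
Slc25a25 first start, chr2:32451471-32451720, minus strand: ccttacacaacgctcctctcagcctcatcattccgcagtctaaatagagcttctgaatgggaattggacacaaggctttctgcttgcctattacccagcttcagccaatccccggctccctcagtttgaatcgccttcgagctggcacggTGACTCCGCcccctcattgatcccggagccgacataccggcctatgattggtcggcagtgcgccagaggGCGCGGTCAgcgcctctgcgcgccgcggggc
Slc25a25 inner start, chr2:32424067-32424316, minus strand: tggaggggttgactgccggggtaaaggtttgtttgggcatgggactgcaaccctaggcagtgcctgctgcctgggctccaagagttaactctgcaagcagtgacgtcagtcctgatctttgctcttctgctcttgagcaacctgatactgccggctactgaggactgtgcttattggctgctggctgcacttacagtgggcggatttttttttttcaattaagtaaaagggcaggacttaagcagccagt
Slc25a36, chr9:97111042-97111291, minus strand: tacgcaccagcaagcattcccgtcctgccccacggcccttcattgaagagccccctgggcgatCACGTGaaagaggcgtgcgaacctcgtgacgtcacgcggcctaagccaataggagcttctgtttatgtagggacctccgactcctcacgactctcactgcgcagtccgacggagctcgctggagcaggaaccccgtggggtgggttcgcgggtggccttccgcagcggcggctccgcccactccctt
Slc25a3, chr10:91123968-91124217, minus strand: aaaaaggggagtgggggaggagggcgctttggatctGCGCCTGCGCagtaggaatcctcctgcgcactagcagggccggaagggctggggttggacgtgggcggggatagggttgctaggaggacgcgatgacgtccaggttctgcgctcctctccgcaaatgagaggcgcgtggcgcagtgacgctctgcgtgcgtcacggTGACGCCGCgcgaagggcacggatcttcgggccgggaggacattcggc
The window of the first Slc25a25 start held TGACNNNGC at 100 and at 31 bases before the start, the second of them as its reverse complement, and that of the inner start held none of the 3 motifs. The Slc25a36 window held CACGTG at 187 bases, and the Slc25a3 window held TGACNNNGC at 48 and the NRF1 site at 214 bases. RefSeq promoters were matched to 32 of the 41 members, in 42 windows, some of which overlap within 1 gene. TGACNNNGC occurred in 9 of these windows (21.4%), at 7 members: Slc25a3, Slc25a5, Slc25a14, Slc25a23, Slc25a25, Slc25a33 and Slc25a38. It occurred in 10.2% of all 32851 windows. CACGTG was in 7 member windows (16.7%, against 6.02% of all) and the NRF1 site in 1 (2.38%, against 3.74%). Within a window no motif matches overlapped each other. Overlapping windows counted the same site more than once for TGACNNNGC at Slc25a23 and Slc25a14 and for CACGTG at Slc25a14. Median GC content was 57.0% in the member windows and 52.4% in all, and a match is a description of letters, not of binding.

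**Figure D2:**
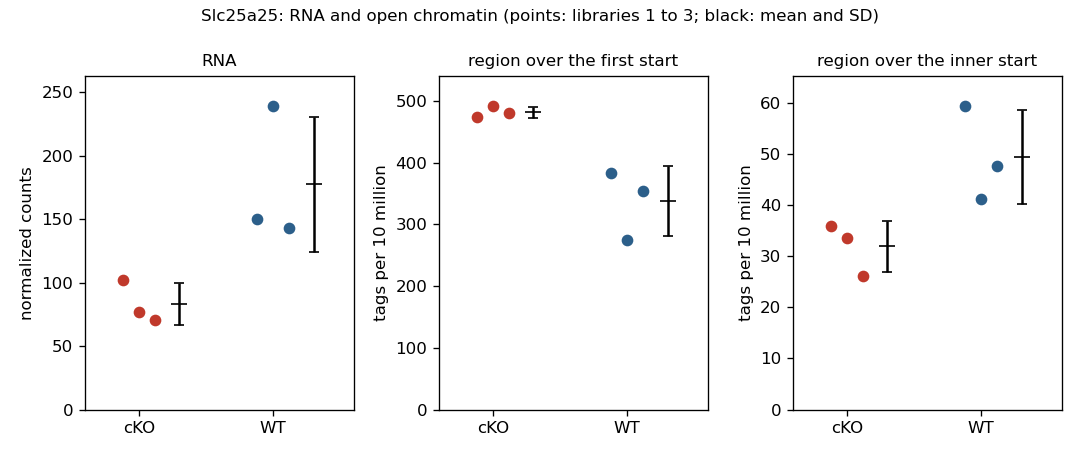
Slc25a25 in each library: normalized counts of its transcript and tag counts of the open regions over its first and inner starts, with 1 point per library and the mean and SD in black, cKO-labelled left of WT. Transcript and inner region are lower in every cKO-labelled library than in any WT library, and the region over the first start is higher.

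Among the 7 carriers of ADP, ATP, ATP-Mg and phosphate, most of which exchange the substrates and product of the ATP synthase or adenine nucleotides across the inner membrane, 4 had cKO-labelled values below all WT values (57.1%, against 9.76% of all genes). None of the 7 passed in limma. Slc25a3, the phosphate carrier, stood at 4974.96, 5198.55 and 5271.35 normalized counts in the cKO-labelled libraries, against 6725.68, 5981.41 and 6500.44 in WT (log2 change -0.31, SE 0.12, 95% interval -0.57 to -0.05, limma adjusted p = 0.312). Slc25a5, the ADP/ATP translocase of dividing cells, stood at 3175.02, 2381.36 and 3261.02 in cKO-labelled libraries, against 3871.94, 3856.92 and 3387.45 in WT (log2 change -0.35, SE 0.15, limma adjusted p = 0.386). Slc25a4, the translocase of heart and muscle, stood at 1917.64, 1833.56 and 1865.5 in cKO-labelled libraries, against 2222.88, 2026.12 and 1957.05 in WT (log2 change -0.14, 95% interval -0.44 to 0.15, limma adjusted p = 0.722). In all 3 the groups did not overlap, and the gap between them was narrow in Slc25a4 and Slc25a5. Slc25a5-ps, a pseudogene with a mean of 9.8 normalized counts, could share reads with Slc25a5.

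The other 3 members of this group overlapped between the genotypes. Slc25a17, a peroxisomal carrier of coenzyme A and nucleotides, had a log2 change of 0.19, and the calcium-regulated ATP-Mg carriers Slc25a23 and Slc25a24 had 0.42 and -0.53. Over the 7 carriers the median log2 change was -0.31, with 5 below 0. The ratio of Slc25a25 to Slc25a23, another calcium-regulated ATP-Mg carrier, had log2 values of 0.29, -0.67 and -0.40 in cKO-labelled libraries, against 1.39, 1.67 and 0.62 in WT. Those values did not overlap, and the difference of -1.48 had a p of 0.1 in an exact two-sided permutation test, the smallest that 20 arrangements allow (0.45 adjusted over 9 pairs of related members, chosen after values were seen). In the ratio of Slc25a25 to Slc25a24 the groups overlapped (difference -0.54, exact permutation p = 0.7).

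Slc25a3, Slc25a4 and Slc25a5 together made up 0.143%, 0.146% and 0.141% of the total in the cKO-labelled libraries, against 0.175%, 0.172% and 0.168% in WT. The other 38 members together made up 0.117%, 0.121% and 0.122% in cKO-labelled libraries, against 0.118%, 0.11% and 0.106% in WT. The sum of these 3 was thus lower in every cKO-labelled library than in any WT library, while the sum of the rest overlapped. Each of the 3 had cKO-labelled values below all WT values, so the separation of their sum is not a separate observation. These shares are a description, with no test.

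**Figure D3:**
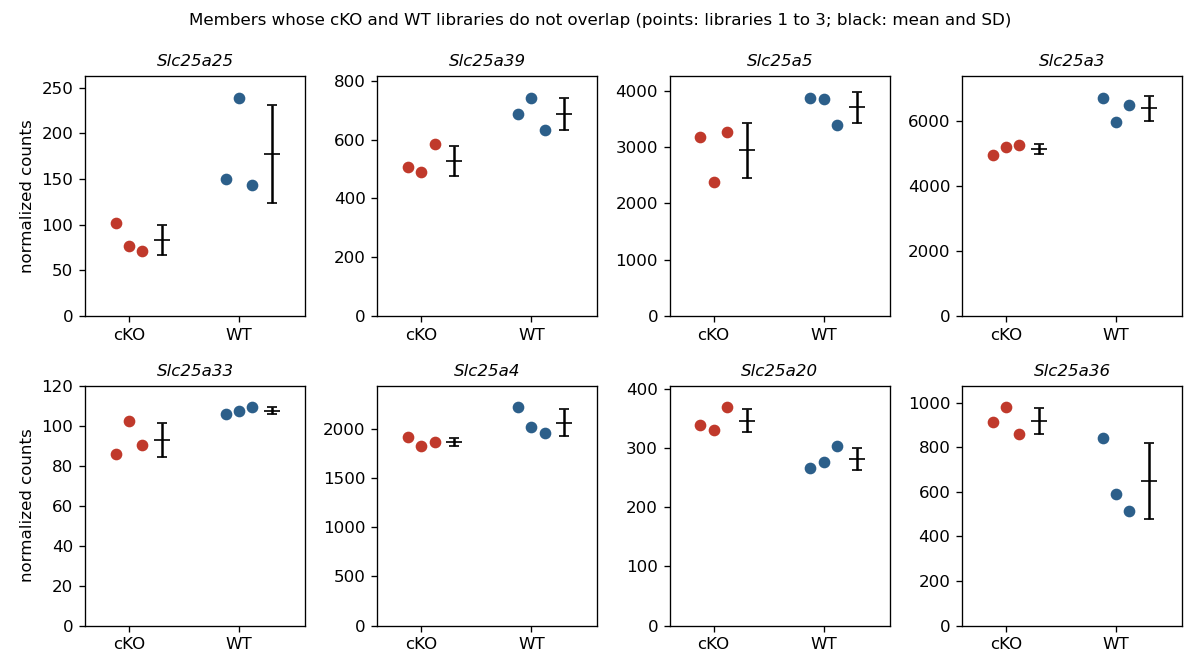
Normalized counts of the 8 members whose groups do not overlap, 1 point per library with the mean and SD in black, cKO-labelled left of WT. The cKO-labelled points lie below the WT points in Slc25a3, Slc25a4, Slc25a5, Slc25a25, Slc25a33 and Slc25a39 and above them in Slc25a20 and Slc25a36.

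Among the carriers of nucleotides and cofactors, Slc25a36 and Slc25a33, which both carry pyrimidine nucleotides, lay on opposite sides. Slc25a36 stood at 912.39, 979.44 and 861.05 normalized counts in the cKO-labelled libraries, against 840.57, 591.77 and 516.3 in WT (log2 change 0.53, SE 0.20, 95% interval 0.10 to 0.95, limma adjusted p = 0.303). Slc25a33 stood at 86.08, 102.76 and 90.33 in cKO-labelled libraries, against 106.23, 107.68 and 109.37 in WT (log2 change -0.21, SE 0.28, limma adjusted p = 0.803). The groups did not overlap in either gene. The log2 ratio of Slc25a33 to Slc25a36 was -3.39, -3.24 and -3.24 in cKO-labelled libraries, against -2.97, -2.45 and -2.23 in WT (difference -0.74, exact permutation p = 0.1, adjusted 0.45 over the same 9 pairs). The other 6 overlapped. Slc25a32, which carries folate or FAD, averaged 180.8 ± 56.8 in cKO-labelled libraries and 255.8 ± 61.8 in WT. Slc25a42, a coenzyme A carrier, had the highest log2 change of all members, 0.55, with an SE of 0.34. Slc25a16, linked to coenzyme A, Slc25a26, which carries S-adenosylmethionine, and Slc25a51, which carries NAD+, had changes of 0.015, -0.15 and 0.05.

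In the iron and glutathione group, Slc25a39, a glutathione importer, stood at 505.62, 488.39 and 585.86 in the cKO-labelled libraries, against 688.22, 742.1 and 632.12 in WT (log2 change -0.39, SE 0.17, limma adjusted p = 0.4). The groups did not overlap. Its relative Slc25a40 averaged 102.9 ± 10.4 in cKO-labelled libraries and 121.6 ± 19.3 in WT (SD, n = 3 each), with overlapping values. The mitoferrins Slc25a37 and Slc25a28, which import iron, had log2 changes of 0.01 and 0.12. Values of Slc25a37 were 267.46, 353.39 and 334.81 in cKO-labelled libraries and 425.74, 273.92 and 268.21 in WT, and 1 WT library lay above all others; the sign of its change turned under several settings.

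Of the 7 amino acid carriers, 6 had log2 changes above 0 and all 7 overlapped between the genotypes (median 0.18). Slc25a12 and Slc25a13, the aspartate-glutamate carriers of the malate-aspartate shuttle, had changes of 0.22 and 0.17. Slc25a12 stood at 404.52, 349.23 and 461.97 in cKO-labelled libraries, against 366.53, 400.52 and 280.14 in WT. Slc25a38, which carries glycine for heme synthesis, stood at 360.47, 268.66 and 356.31 in cKO-labelled libraries, against 312.7, 288.36 and 320.54 in WT. Each of these pairs of groups overlapped widely. The ornithine carrier Slc25a15, the glutamate carrier Slc25a22 and the branched-chain amino acid carrier Slc25a44 had changes of 0.23, 0.18 and 0.26, and the basic amino acid carrier Slc25a29 had -0.73 with an SE of 0.58.

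The carriers of carboxylic acids overlapped as well. Slc25a1, which exports citrate, stood at 433.2, 308.61 and 587.21 in cKO-labelled libraries, against 342.97, 305.04 and 319.78 in WT (log2 change 0.41, SE 0.24). Slc25a11, the oxoglutarate-malate carrier, stood at 460.59, 465.0 and 569.75 in cKO-labelled libraries, against 681.75, 457.54 and 590.96 in WT (log2 change -0.20). The groups overlapped in both genes, with WT replicate 2 the lowest library in each. The dicarboxylate carrier Slc25a10 and the oxodicarboxylate carrier Slc25a21 had changes of 0.08 and -0.18. Slc25a20, the carnitine-acylcarnitine carrier of fatty acid oxidation, stood at 339.96, 331.08 and 369.03 in cKO-labelled libraries, against 266.16, 277.46 and 303.13 in WT (log2 change 0.30, SE 0.20, limma adjusted p = 0.582). There the groups did not overlap. Slc25a48, a choline carrier, stood at 25.82, 15.07 and 10.11 in cKO-labelled libraries, against 25.87, 20.49 and 22.7 in WT, with overlap.

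All 3 carriers related to the uncoupling proteins, Slc25a14, Slc25a27 and Slc25a30, had negative changes, -0.25, -0.44 and -0.22, and all overlapped. Slc25a14 stood at 86.9, 82.32 and 64.11 in cKO-labelled libraries, against 110.8, 56.57 and 124.1 in WT, and Slc25a30 at 77.88, 107.29 and 104.92 in cKO-labelled libraries, against 130.64, 100.29 and 106.13 in WT. Slc25a46, which acts in mitochondrial dynamics from the outer membrane, stood at 527.19, 374.57 and 496.67 in cKO-labelled libraries, against 443.32, 438.67 and 462.03 in WT (log2 change 0.04, 95% interval -0.38 to 0.46). Slc25a53 stood at 105.67, 131.32 and 121.55 in cKO-labelled libraries, against 143.55, 79.9 and 86.02 in WT. Of the less well assigned members, Slc25a35, Slc25a43, Slc25a45 and Slc25a47 had changes of -0.04, -0.70, 0.36 and 0.29 with SEs of 0.65, 0.82, 0.38 and 0.64. Below the mean of 10 and left out were Slc25a34 and Slc25a2, with means of 5.8 and 4.0.

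Gene span is given because changes over all genes moved with it. Over 15786 genes with a span, Spearman's rho between span and log2 change was 0.121, and the median change was -0.03 among genes up to 5.04 kb and 0.15 among those from 64.7 kb. Over the 41 members rho was -0.105, and their median span was 23.1 kb. Its part in the members' changes was not tested.

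The genes whose levels were most like those of Slc25a25, by Pearson's r over the 6 libraries (11943 genes averaging 50 or more), were Ndufb8, a complex I subunit (r = 0.985), the predicted gene Gm8186 (0.98) and Rps27l, a ribosomal protein-like gene (0.979). Ndufb8 stood at 644.54, 556.82 and 582.6 in cKO-labelled libraries, against 842.64, 1185.5 and 794.99 in WT. As in Slc25a25, WT replicate 2 was the highest. These r values were picked as the highest among all those genes over 6 points and carry no test.

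Other mitochondrial transport genes, without an Slc25a symbol, were tested from a list of 28, of which 26 reached the mean of 10. The rule for members goes by symbol, so carriers of the same family under other names, such as Ucp2, stand in this list. None passed in limma (2 higher and 4 lower at an unadjusted p under 0.05, where 6.05% of all genes lay in each direction), while the authors' deposited table put 1 higher and 2 lower. Groups did not overlap in 4 higher genes (15.4% of the 26, against 7.4% of all genes) and 7 lower ones (26.9%, against 9.76%). The median log2 change was -0.05, beside 0.06 over all genes. Ucp2, an uncoupling protein of immune cells, stood at 2575.86, 1583.61 and 3418.17 in cKO-labelled libraries, against 1496.1, 1250.26 and 1341.84 in WT (log2 change 0.82, limma adjusted p = 0.157). Its adjusted p in the authors' deposited table was 0.00946. Mpc2, a subunit of the pyruvate carrier, stood at 396.34, 485.32 and 303.98 in cKO-labelled libraries, against 668.92, 594.21 and 725.99 in WT (log2 change -0.77, limma adjusted p = 0.146). In the authors' deposited table its adjusted p was 0.0223, and that of Smdt1, a calcium uniporter subunit (log2 change -0.56 in limma), was 0.0437.

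Enzymes that make or use the carried solutes were 40 genes in 41 rows of the table. None passed in limma (3 higher and 5 lower at an unadjusted p under 0.05, where 6.05% of all genes lay in each direction), and the authors' deposited table put 1 lower. One of the 3 higher is a single row of Nnt, a gene with 2 rows whose sum overlapped between the genotypes. Groups did not overlap in 3 higher rows (7.32%, against 7.4% of all genes) and 7 lower ones (17.1%, against 9.76%), and the median log2 change was 0.08. The enzyme that the authors' deposited table put lower was Ckb, a creatine kinase that draws on exported ATP. Ckb stood at 448.32, 479.53 and 470.24 in cKO-labelled libraries, against 789.17, 756.26 and 869.81 in WT (log2 change -0.79, limma adjusted p = 0.0799). Its adjusted p in the authors' deposited table was 0.0011. Mdh1, the cytosolic malate dehydrogenase of the malate-aspartate shuttle, stood at 966.9, 1176.35 and 1045.85 in cKO-labelled libraries, against 1546.03, 1342.95 and 1380.94 in WT. The groups overlapped in neither of these enzymes.

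Open chromatin lay within 1 kb of a start or end of all 41 members, in 47 regions (for 9 members without a RefSeq promoter both gene ends were used). Of these, 42 regions at 37 members were in all 6 peak lists. A start, or either gene end for those 9 members, was covered by 39 of them. No region at Slc25a21, Slc25a37, Slc25a43 or Slc25a47 was in all lists. Heights, the scaled tag count of the highest peak in a region, ran from 10.3 to 750.6 per library. In the deposited heights 13 of the 42 did not overlap and were higher in the cKO-labelled libraries and 3 were lower, where 13.6% and 21.8% of all 33531 regions were. The 3 lower ones lay at Slc25a25, Slc25a45 and Slc25a53. For the deposited heights no such share was taken over regions near any gene start, so these counts are not shown to be particular to the members. WT replicate 2 was the lowest library in 34 of the 42.

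Whether the regions differed depended on how libraries were scaled. With each library's median subtracted, limma called 26 of the 42 (61.9%) higher in cKO-labelled libraries and 0 lower, beside 59.2% and 1.2% of the 10585 regions within 1 kb of any gene start and 28.0% and 5.48% of all regions. With no subtraction 0 were higher and 0 lower, beside 2.77% and 2.09% near any start and 1.37% and 9.03% of all. After quantile normalization and after cyclic loess 0 were higher and 2 lower, beside 5.92% higher and 2.84% lower (quantile) and 6.49% and 3.8% (loess) near any start; over all regions these shares were 3.67% and 4.33%, and 4.09% and 5.27%. These 2 were the regions at Slc25a40 (log2 change -0.31 and -0.32) and Slc25a45 (-0.53 and -0.55), of which the first was called higher with medians subtracted (0.37) and the second was not called there. Median log2 changes of the member regions were 0.53, 0.23, 0.12 and 0.09 in that order of scalings, and those of regions near any start 0.52, 0.22, 0.12 and 0.10. No region was called under all 4 scalings, and the members' counts lay close to those of regions near any start.

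**Figure D4:**
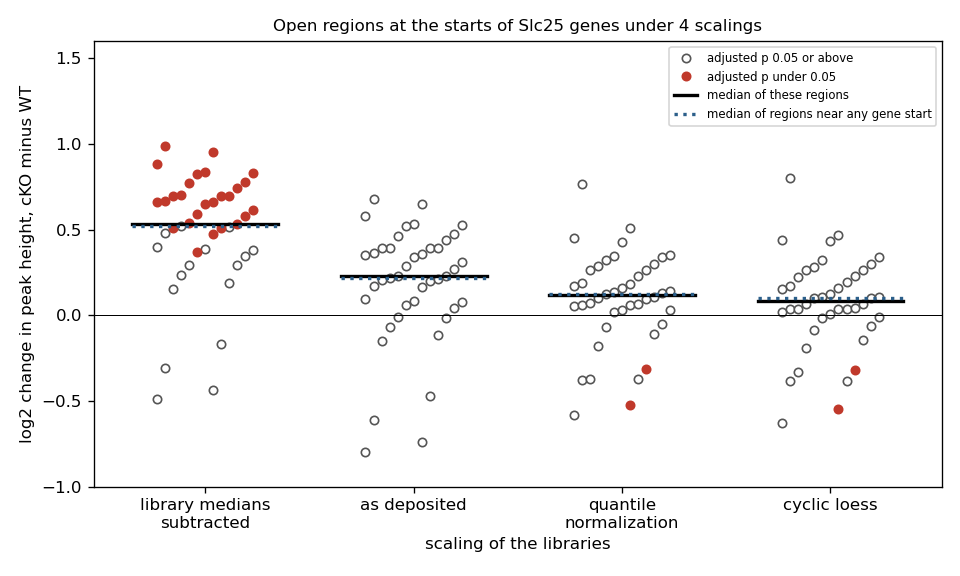
Log2 change in height, cKO-labelled over WT, of the 42 open regions at Slc25 members under 4 scalings of the libraries, 1 point per region, filled where the adjusted p is under 0.05; lines mark medians. Median changes are 0.53, 0.23, 0.12 and 0.09, and no region is called under all 4.

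Slc25a25 had regions over 2 of its starts. The one over the first start (chr2:32449855-32453246) had heights of 473.9, 491.3 and 480.2 in the cKO-labelled libraries, against 383.9, 274.7 and 354.4 in WT. The one over the inner start (chr2:32423251-32424577) had 35.9, 33.6 and 26.2 in cKO-labelled libraries, against 59.3, 41.2 and 47.7 in WT. The first region lay higher in every cKO-labelled library and the inner one lower. Called by limma only with medians subtracted, the first region had log2 changes of 0.83, 0.53, 0.02 and -0.02 over the 4 scalings. The inner one had -0.31, -0.61, -0.37 and -0.38 and was not called (adjusted p of 0.08 to 0.516 over all alternatives). No single scaling factor of a library changes a ratio within it. Quantile normalization and cyclic loess are not single factors, and under them the changes of the inner and first regions lay closer together. They were -0.37 and 0.02 after quantile normalization and -0.38 and -0.02 after loess, against -0.31 and 0.83 with medians subtracted. The ratio below is of deposited heights. The inner region was 7.58%, 6.84% and 5.46% of the height of the first in the cKO-labelled libraries, against 15.4%, 15.0% and 13.5% in WT. The groups did not overlap (log2 difference -1.16, exact two-sided permutation p = 0.1, the smallest that 20 arrangements allow), and the ratio was chosen after the heights were seen. The table gives 1 RNA value for the gene, so transcripts from each start were not told apart.

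At other members whose RNA values did not overlap, Slc25a3 had heights of 251.1, 270.8 and 289.0 in the cKO-labelled libraries, against 214.8, 153.9 and 200.9 in WT, higher in each, where its RNA values were lower. Slc25a36 had 184.9, 172.3 and 195.1 in cKO-labelled libraries, against 170.2, 112.9 and 158.4 in WT, and Slc25a20 had 59.0, 70.8 and 63.9 in cKO-labelled libraries, against 52.8, 38.7 and 57.1 in WT. In these 3 the heights did not overlap. The heights at Slc25a4, Slc25a5, Slc25a33 and Slc25a39 overlapped. They were 77.3, 95.6 and 81.0 at Slc25a4 in cKO-labelled libraries, against 90.2, 50.2 and 74.3 in WT, and 64.5, 57.5 and 64.3 at Slc25a5 in cKO-labelled libraries, against 71.3, 30.6 and 69.1 in WT. At Slc25a33 they were 90.7, 88.8 and 86.3 in cKO-labelled libraries, against 89.8, 49.4 and 73.6 in WT, and at Slc25a39 282.1, 262.0 and 266.2 in cKO-labelled libraries, against 278.2, 173.5 and 252.3 in WT. WT replicate 1 lay within or above the cKO-labelled values in each, and WT replicate 2 was the lowest library in each.

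Among the remaining members with values given for RNA, Slc25a30 had heights of 171.4, 177.7 and 162.7 in cKO-labelled libraries, against 156.3, 80.2 and 149.4 in WT. There the groups did not overlap. The inner of the Slc25a53 starts had 14.1, 13.5 and 11.8 in cKO-labelled libraries, against 26.4, 16.1 and 30.4 in WT, lower in each cKO-labelled library. The outer start of Slc25a53 had 21.0, 17.5 and 12.5 in cKO-labelled libraries, against 18.1, 16.9 and 17.6 in WT. Those of Slc25a1, Slc25a12, Slc25a14, Slc25a38, Slc25a46 and Slc25a48 overlapped as well, with means of 27.0 to 168.8 in cKO-labelled libraries and 20.3 to 148.9 in WT. The region at Slc25a11 was 12638 bp long and joined several peaks, and its height is that of the highest of them.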

How the data were processed

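RNA-seq and ATAC-seq libraries (3 cKO-labelled and 3 WT each) were grouped by the labels. Per the submitters' processing notes the tools included HOMER 4.11, Bowtie2 2.3.5.1, RSEM 1.3.3, STAR, edgeR and DESeq2, with mm10; settings are not given in the sources used here. The deposited RNA signal is the authors' normalized count per gene; only 0.18% of values were whole within 0.001, no read numbers could be had from them, and raw depth is unknown. Of the 2 log2 fold change columns the authors deposited, which differ in sign alone, the one used is cKO over WT; its standard error is also deposited. Each p-value in that table was computed by the authors, with an adjusted one for some genes. Per the file headers each ATAC list gives a tag-count signal scaled to 10000000 tags, a region size, a peak score, and a clonal fold change, a ratio. The Poisson p-value limit for a peak was 0.001, with at most 1 tag per bp.

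Genes with a mean of at least 10 were tested with limma 3.58.1 (R 4.3.3, with a mean-variance trend) after adding 1 and taking log2, with p adjusted by Benjamini-Hochberg over all genes and a threshold of 0.05; a fold change on this scale understates that of low genes. Peaks sharing at least 1 bp were merged (Python 3.11.15, pandas 2.3.3, numpy 2.4.6), and log2 of height plus 1 was tested at the 33531 of 114463 regions in all 6 lists, after subtracting library medians. Exact permutation tests used scipy 1.17.1, and figures matplotlib 3.10.9. Alternatives were other pseudocounts, filters, scalings, variance models, peak heights, overlaps and windows, the replicate number as a term, each library left out, and the authors' adjusted p; ratios within a library were added after values were seen. Fits were tested on simulated data. Promoter sequences are RefSeq's (GRCm38.p6). Members given in every library were those past 0.05 in limma or in the authors' table, those whose groups did not overlap, and the 2 with the highest mean in each role group; from each of the other lists the 3 with the smallest p were named. Some results under this rule are not reported here. The 95% intervals come from limma. The members and gene lists were chosen with earlier results of these data known.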

Additional observations from a re-analysis of the deposited data

How the results depend on the processing

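Counts of Slc25 members past an adjusted p of 0.05 in RNA (0 higher, 0 lower in cKO-labelled libraries) were 1 and 2 with sample quality weights and 0 and 1 in the authors' deposited table, and 0 under the other settings, each left-out library included (leave-one-out range 0 to 0). Counts over all genes (6 higher, 31 lower) were 17 and 16 after quantile normalization, 2 and 4 without the trend, 943 and 840 with weights, and 165 and 361 in the authors' deposited table. Leaving out 1 library gave 0 to 56 higher and 1 to 94 lower, the most without cKO replicate 2. The transport genes (0 and 0) gave 3 and 5 with weights, 1 and 2 in the authors' table and 0 to 1 higher without 1 library; the enzymes gave 2 and 3 with weights and 0 and 1 in the authors' table. The sign of Slc25a37 (0.01) turned with TMM (-0.029), median-of-ratios (-0.003), quantile (-0.042), weights (-0.11) and the authors' table (-0.007), and ran from -0.11 to 0.22 with 1 library left out; Slc25a46 (0.04) ran from -0.054 to 0.192.

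The labels do not say whether replicate numbers pair the libraries. Same-number correlations around group means were 0.12, 0.21 and -0.06 in RNA and -0.03, -0.01 and 0.01 in ATAC. Those between different numbers ran from -0.27 to 0.22 in RNA and from -0.02 to 0.03 in ATAC. With the number as a block, all genes gave 30 higher and 92 lower and members 0 and 0.

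In ATAC, member regions (26 higher, 0 lower) gave 0 higher with no subtraction, quantile normalization and loess, 2 lower with quantile and 2 with loess, and 1 lower with peaks of at least 10 tags or a window of 5 kb; left-out libraries gave 25 to 27 higher. All regions (9387 higher, 1836 lower) gave 459 higher and 3029 lower with no subtraction, and 1229 and 1373 higher with quantile and loess. Signs turned at Slc25a53 (0.045 per kb at the inner start; -0.07 with no subtraction at the outer), Slc25a48 (-0.11 per kb), Slc25a39 (-0.18 quantile, -0.19 loess), the first Slc25a25 start (-0.017 loess), Slc25a11 (-0.12 with no subtraction, -0.58 quantile, -0.63 loess, and -0.14 to 0.47 with 1 library left out) and Slc25a1 (-0.066 quantile, -0.085 loess). The cause was not tested. Raw RNA depth is unknown, and 3 libraries a group limit the precision.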

Other observations

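Nnt, the transhydrogenase that makes mitochondrial NADPH, stood in 2 rows of the RNA table, and their values traded off between libraries. One, ENSMUSG00000025453, had 28.7, 97.1 and 69.5 normalized counts in the cKO-labelled libraries, against 201.8, 106.8 and 21.2 in WT. The other, ENSMUSG00000116207, had 179.9, 74.5 and 147.5 in cKO-labelled libraries, against 0.0, 39.7 and 137.4 in WT. Their sum was 199.1 ± 24.2 in cKO-labelled libraries and 169.0 ± 29.1 in WT (SD, n = 3 each), and the groups of sums overlapped. A level from one row alone therefore does not describe Nnt, and how reads were divided between the rows is not given in the sources used here.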
